A study of Rattus norvegicus with 12 samples.

Results

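Hspa5 and Ddit3 are standard transcript readouts of stress in the endoplasmic reticulum (ER), and their levels were followed here in OC1 cells, a cultured line labelled as cochlear sensory epithelium, after transfection with siRNA against Bcl-2. The genes were chosen by identifier (ENSRNOG00000018294 for Hspa5 and ENSRNOG00000006789 for Ddit3), which makes 2 members of the 23978 genes in the count table, and both were among the 12731 that passed the filter on low counts. A group of 4 libraries came from cells given a control siRNA (siControl, genotype WT in the labels), a group of 4 from cells given siBcl-2 1423 and a group of 4 from cells given siBcl-2 1928, each labelled as a Bcl-2 knockdown. All groups were transfected by lipofection with 15 µl of siRNA per well, so the controls share the transfection. A treatment tag in the labels names a plasmid, while the protocol and the descriptions name siRNA, which is followed here.

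BiP, the product of Hspa5, is the main HSP70-type chaperone of the ER lumen. It binds unfolded proteins and also holds the stress sensors PERK, IRE1 and ATF6 in an inactive state, and its own transcription is raised through ATF6 and XBP1 when unfolded proteins accumulate. CHOP, the product of Ddit3, is a transcription factor of the C/EBP family that is induced mainly through PERK and ATF4 and is associated with cell death under prolonged stress. BCL-2, the target of the siRNAs, inhibits apoptosis at the mitochondrial and ER membranes, and repression of its gene is among the effects ascribed to CHOP.

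Library totals ran from 15671546 to 23247593 expected counts. Over these totals, Hspa5 received 8237 to 12863 expected counts per library and Ddit3 273 to 425. The labels do not say whether libraries of a group came from separate cultures, so a p-value here measures the spread between libraries, and that spread may be technical. Fewer cells of a kind and less RNA per cell cannot be told apart in such bulk samples. The table lists gene identifiers without symbols, so the level of Bcl2, markers of the labelled cell type and the other genes of the ER stress response were not analysed here. Reads were assigned to the rat build mRatBN7.2 per the submitters' notes. The sources used here do not say whether OC1 is the mouse line HEI-OC1, and the part that a difference in species would have in these counts was not tested.

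The sequences just upstream of both genes are shown because the one of Hspa5 holds the ER stress element, through which ATF6 is known to act, and the one of Ddit3 holds a near match to it. Each line gives the 250 bases before the annotated gene start in RefSeq (assembly GRCr8, plus strand), at chr3:38452766-38453015 for Hspa5 and chr7:65001445-65001694 for Ddit3, both matched by symbol. Capitals mark the outer parts of the match, exact or near, to the element, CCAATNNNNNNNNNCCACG.
Hspa5: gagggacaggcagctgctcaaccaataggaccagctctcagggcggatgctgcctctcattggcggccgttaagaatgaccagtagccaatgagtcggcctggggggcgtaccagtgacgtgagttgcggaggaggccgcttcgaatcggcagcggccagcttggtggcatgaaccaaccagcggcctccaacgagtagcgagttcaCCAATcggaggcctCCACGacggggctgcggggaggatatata
Ddit3: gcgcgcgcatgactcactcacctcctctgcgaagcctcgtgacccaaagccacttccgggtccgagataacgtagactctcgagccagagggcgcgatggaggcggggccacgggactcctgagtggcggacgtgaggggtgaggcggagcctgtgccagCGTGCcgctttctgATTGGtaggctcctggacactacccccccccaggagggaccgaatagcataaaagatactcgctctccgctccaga

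Hspa5 held 1 exact match to the element on the plus strand, 43 to 25 bases before the gene start (chr3:38452973-38452991). Ddit3 held no exact match. With 1 mismatch allowed in the CCACG part, Ddit3 held 1 match on the minus strand, 90 to 72 bases before the start (chr7:65001605-65001623). Its sequence differs by the substitution C1G, counted from 1 at the first base of CCACG. No mismatch in the CCAAT part and no more than 1 in CCACG was allowed. Copies of the element that differ more were therefore not counted for either gene. Set side by side in the direction of the motif, the sites read as follows.
Hspa5: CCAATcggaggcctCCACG
Ddit3: CCAATcagaaagcgGCACG

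Both strands of the same 250-base window were searched upstream of 33469 RefSeq gene starts. An exact element was found in 22 of them (0.0657%), and an element exact or with 1 mismatch in 304 (0.908%). The CCAAT box alone (CCAAT), which is contained in the element, was found in 34% of windows. It occurred 4 times upstream of Hspa5 and 1 time upstream of Ddit3, counting the copy inside each element. Neither window held the core of the amino acid response element through which ATF4 acts (TGATGNAA), which was found in 3.4% of all windows. Bases farther than 250 from the gene start, or past it, were not searched. The search therefore cannot say whether either gene has such an element outside its window. These matches describe letters and show nothing about binding in OC1 cells.

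The level of Hspa5 stayed within a narrow range in every library. It was 513, 511, 538 and 515 counts per 1000000 (CPM, scaled by trimmed means of M values, TMM) in control replicates A, B, C and D. With siRNA 1423 it was 494, 494, 503 and 520 CPM, and with siRNA 1928 it was 522, 537, 553 and 559 CPM, in the same order of letters. The 3 lowest values all belonged to siRNA 1423 and the 2 highest to siRNA 1928. Control replicate C stood above the other 3 controls, and siRNA 1423 replicate D above the other 3 libraries of its group. The group means were 519 ± 12.6 CPM in the control group, 503 ± 12.3 CPM with siRNA 1423 and 543 ± 16.8 CPM with siRNA 1928 (SD, n = 4 each). In order of level, siRNA 1928 came first, the control next and siRNA 1423 last. Neighbours in that order overlapped in their libraries, while the outer groups did not.

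The level of Ddit3 was similar in all groups. Control replicates A to D had 18.2, 18.6, 18.4 and 17.5 CPM. The libraries of siRNA 1423 had 18.1, 16.3, 16.2 and 17.5 CPM, with replicates B and C the lowest of all 12 libraries. The libraries of siRNA 1928 had 17.9, 18.0, 18.3 and 17.7 CPM and lay inside the range of the controls. Group means were 18.2 ± 0.445 CPM in the control group, 17.0 ± 0.90 CPM with siRNA 1423 and 17.9 ± 0.252 CPM with siRNA 1928 (SD, n = 4 each). The groups overlapped in every pairing, so no order among them was separated from the spread.

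**Figure D1:**
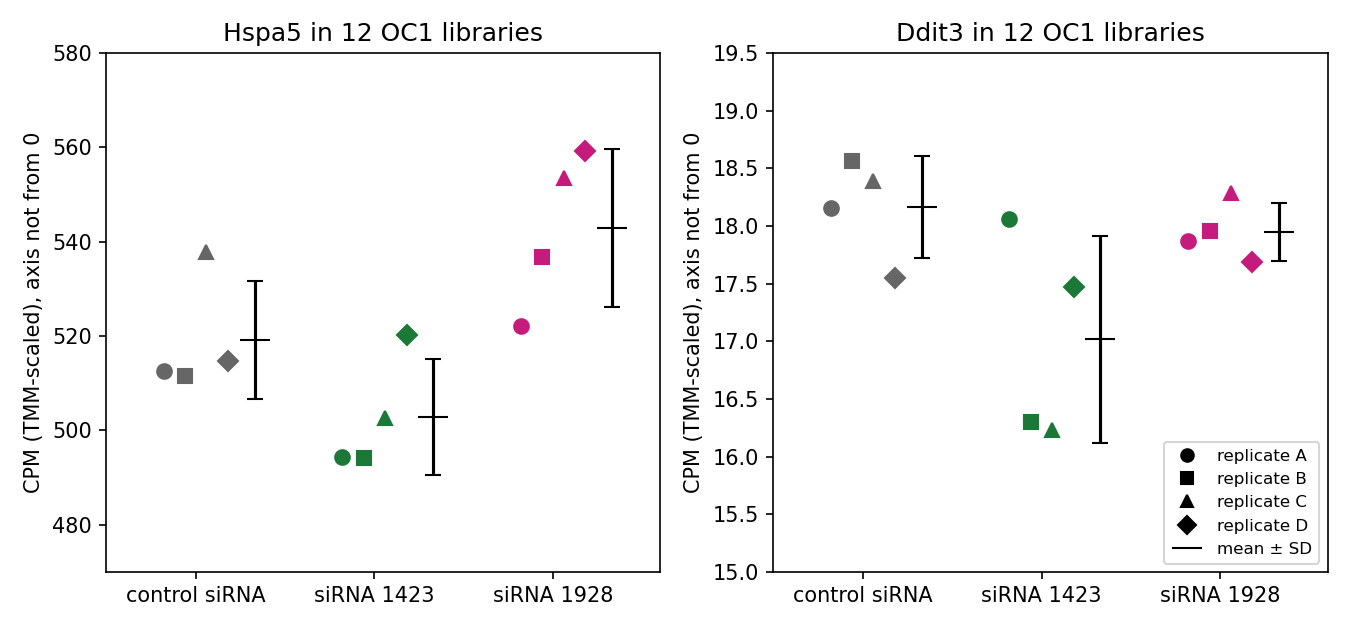
TMM-scaled CPM of Hspa5 (left) and Ddit3 (right) on the vertical axes, which do not start at 0, for the 3 groups of 4 libraries; symbols are replicates A to D, and black bars are the group mean ± SD. The Hspa5 libraries of siRNA 1928 (522 to 559 CPM) lie above all those of siRNA 1423 (494 to 520 CPM), while the Ddit3 groups overlap throughout.

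The comparison of siRNA 1423 with the control asked whether transcripts of the ER stress response moved in cells given this siRNA, and neither gene passed the test. Hspa5 had a log2 fold change of -0.046 (SE 0.0293, adjusted p = 0.283 by edgeR's quasi-likelihood test with Benjamini-Hochberg adjustment over all tested genes), with a 95% interval from -0.11 to 0.015. Ddit3, for CHOP, had a log2 fold change of -0.097 (SE 0.0600, adjusted p = 0.270 by edgeR), with a 95% interval from -0.22 to 0.028. The intervals thus run from 0.928 to 1.01 times the control level for Hspa5 and from 0.858 to 1.02 times for Ddit3. The 0 of 2 members called stand against 22.8% of all tested genes, and the groups did not overlap in 0 of 2 members against 23.7% of genes. Hspa5 was lower with siRNA 1423 in 3 of the 4 same-letter pairs and Ddit3 in 4 of 4. For Ddit3, the pairs of letters A and D differed by only -0.0076 and -0.0065 on the log2 scale, and those of B and C by -0.19 and -0.18.

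With siRNA 1928, Hspa5 was higher than the control on average without passing the test as set, a call that other settings changed, and Ddit3 was close to the control. The log2 fold change of Hspa5 was 0.064 (SE 0.0293, unadjusted p = 0.0388 and adjusted p = 0.0783 by edgeR), with a 95% interval from 0.0036 to 0.13, or 1.00 to 1.09 times the control level. Its CPM were higher with siRNA 1928 in 14 of the 16 pairings of a library with a control library, and in 4 of 4 same-letter pairs (0.027, 0.069, 0.041 and 0.12 for A to D on the log2 scale). The log2 fold change of Ddit3 was -0.018 (SE 0.0590, adjusted p = 0.835 by edgeR), with a 95% interval from -0.14 to 0.10, or 0.907 to 1.07 times the control level. Again 0 of 2 members were called, against 45.2% of all tested genes, and both overlapped with the control, while 39.4% of genes did not.

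Whether Hspa5 passed the test against the control depended on the scaling, on the filter, on the terms of the model and on single libraries. The TMM factors were 1.02 to 1.03 in the libraries of siRNA 1928 and 0.985 to 0.995 in the controls, and without them the median log2 fold change of all tested genes moved from 0.0034 to 0.060. With library size alone, Hspa5 stood at 513 ± 11.4 CPM in the control group, 495 ± 9.92 CPM with siRNA 1423 and 558 ± 14.9 CPM with siRNA 1928 (SD, n = 4 each). The log2 fold change with siRNA 1928 was then 0.12 (SE 0.0271, adjusted p = 0.000884 by edgeR), its libraries no longer overlapped with the controls, and 47.2% of all genes were called under this scaling (30.4% as higher). The groups did not overlap in 41.3% of all genes there. With TMM the test was also passed when genes averaging under 5 CPM were left out (0.076, adjusted p = 0.0313 by edgeR). With the fold change hardly moved, it was passed in a model with a term for replicates A and B against C and D (0.064, adjusted p = 0.0204 by edgeR). That grouping of letters came from earlier results of these data and not from the labels. The adjusted p with this term takes no account of that choice, which can favour a smaller value. The test was likewise passed without control replicate C (0.081, adjusted p = 0.0380 by edgeR) and without siRNA 1928 replicate A (0.0825, adjusted p = 0.0338). Ddit3 moved to 0.039 with library size alone and did not pass the test (adjusted p = 0.615 by edgeR).

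The siRNAs differed from each other in Hspa5. The chaperone transcript was 7.96% higher with siRNA 1928 than with siRNA 1423, a log2 difference of 0.11 (SE 0.0293, adjusted p = 0.00394 by edgeR) with a 95% interval from 0.050 to 0.17. All 4 libraries of siRNA 1928 lay above all 4 of siRNA 1423, and the difference had the same sign in 4 of 4 same-letter pairs, from 0.079 in A to 0.14 in C. Ddit3 had a log2 difference of 0.079 (SE 0.0600, adjusted p = 0.304 by edgeR) with a 95% interval from -0.045 to 0.20. Of the 2 members, 1 was therefore called, against 44.3% of all tested genes (21.3% as higher with siRNA 1928), and in 39.9% of all genes the groups did not overlap. A call of this kind was thus common in this comparison. The comparisons of each siRNA with the control share the control libraries, and this one shares a group with each of them.

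The letters of the libraries fell into A with B and C with D in earlier results of these data. The labels name the letters but not this grouping. Both parts are subsets of the libraries of the main test, so their agreement with it is not independent support. The difference of Hspa5 between the siRNAs was present in each part. It was 0.099 (adjusted p = 0.0339 by edgeR) in replicates A and B alone and 0.12 (adjusted p = 0.00346) in C and D alone. Against the control, Hspa5 with siRNA 1928 stood at 0.048 (adjusted p = 0.317 by edgeR) in A and B and at 0.078 (adjusted p = 0.0573) in C and D. The corresponding values of siRNA 1423 were -0.051 and -0.043 (adjusted p = 0.397 and 0.400 by edgeR). For Ddit3 with siRNA 1423 they were -0.095 in A and B and -0.099 in C and D (adjusted p = 0.597 and 0.517 by edgeR), and with siRNA 1928 -0.035 and -0.0015 (adjusted p = 0.810 and 0.992).

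**Figure D2:**
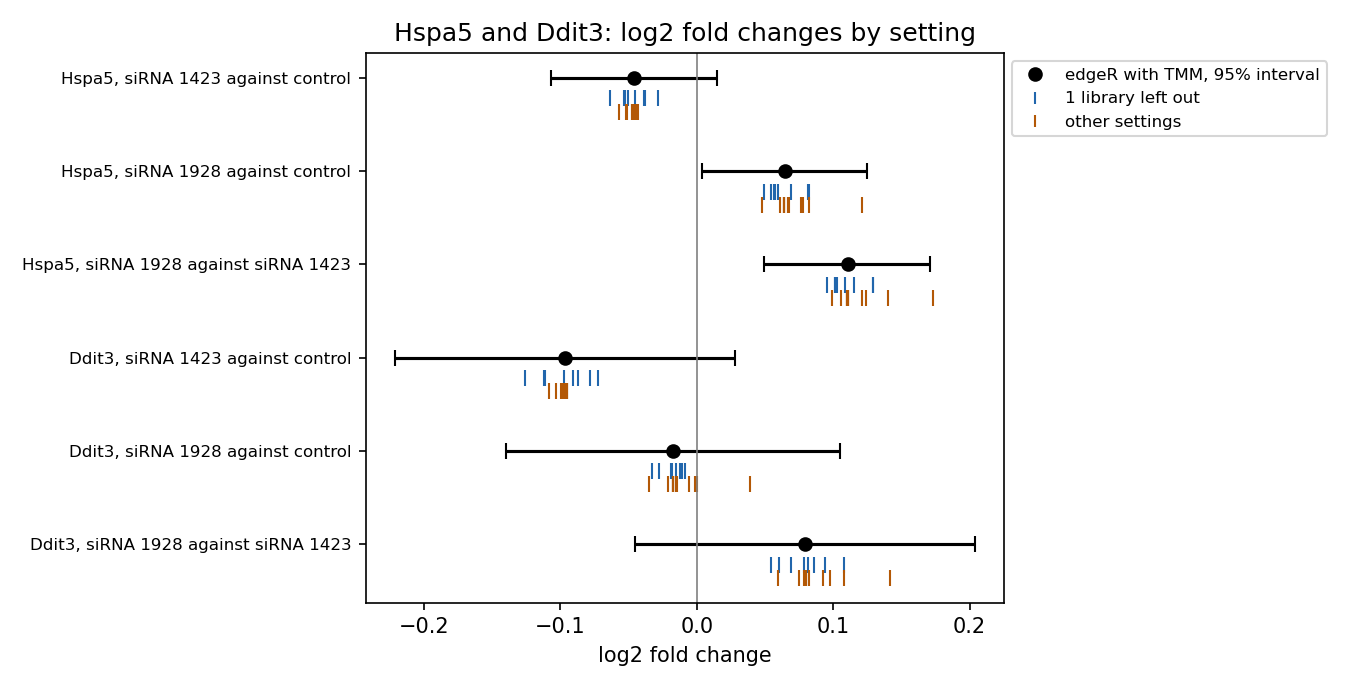
Log2 fold changes (horizontal axis) of Hspa5 and Ddit3 in the 3 comparisons; black points with bars are the edgeR estimates with TMM and their 95% intervals, blue ticks the estimates with 1 library left out and orange ticks those under the other settings. Every estimate of Hspa5 for siRNA 1928 against siRNA 1423 lies between 0.0957 and 0.173, whereas those of Ddit3 for siRNA 1928 against control lie on either side of 0.

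The changes of both genes ranged from about the median of other genes to well below it. With siRNA 1423, 74.2% of tested genes had a larger absolute log2 fold change than Hspa5 and 49.8% a larger one than Ddit3. With siRNA 1928 the shares were 76.2% and 93.5%. In the direct comparison of the siRNAs they were 59.7% for Hspa5 and 70.2% for Ddit3. Abundance bears on how small a difference can be called, so the members were also set beside genes within 2-fold of their own mean CPM. Among the 605 such genes for Hspa5, 40.2% were called with siRNA 1423, 62.3% with siRNA 1928 and 59.8% between the siRNAs. Among the 3729 such genes for Ddit3, the shares were 19.1%, 43.3% and 42.6%. A larger absolute change than that of Hspa5 was seen in 64.5%, 68.6% and 47.9% of its 605 genes in these comparisons. For Ddit3 the shares were 49.1%, 94.2% and 70.4% of its 3729 genes.

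**Figure D3:**
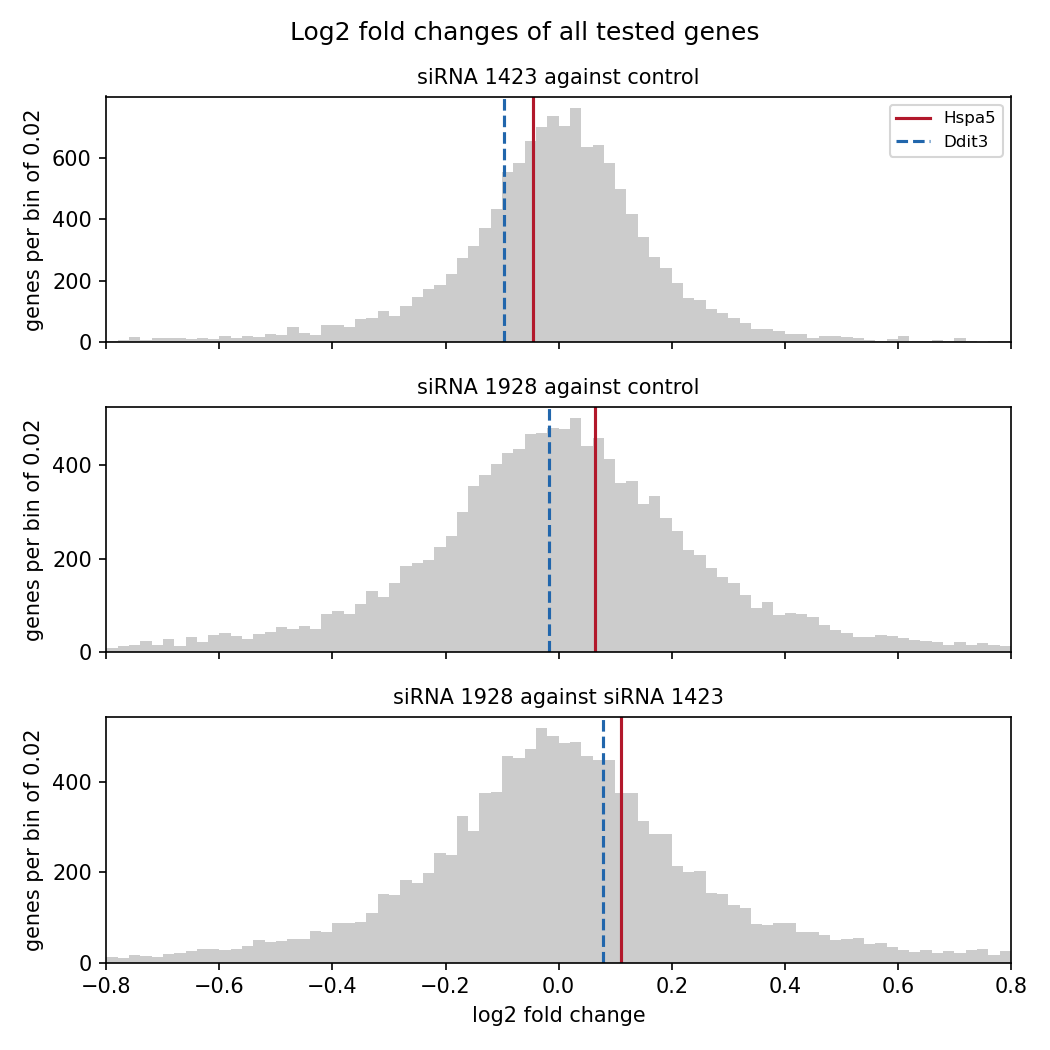
Number of tested genes (vertical axis) per bin of log2 fold change (horizontal axis, drawn from -0.8 to 0.8) in the 3 comparisons, with Hspa5 as a solid red line and Ddit3 as a dashed blue line. Both lines fall in the central bulk of the genes in each panel, between -0.097 and 0.11.

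The standard errors of the model were larger for Ddit3, which had fewer counts, although its spread between libraries was not larger in every group. The expected counting error of 1 library was 0.964% to 1.04% for Hspa5, below the coefficients of variation of 2.42%, 2.45% and 3.09% seen in its groups. For Ddit3 the counting error was 5.30% to 5.66%, and the coefficients of variation were 2.45%, 5.29% and 1.40%, all at or below it. These errors treat expected counts as reads, and they cover counting error only. At the standard errors obtained, a change of Hspa5 would have passed the test from about 5.79% with siRNA 1423 and 5.11% with siRNA 1928. For Ddit3 the corresponding changes were 12.2% and 10.6%. Smaller observed differences of CHOP mRNA would not have passed the test at these standard errors. These values are cutoffs for an observed change and not limits on the true changes that could be called.

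The balance between the genes was compared by their count ratio within each library, which does not depend on the scaling of libraries. The ratio is not one of molecules, since counts also follow transcript length. There were 28.2, 27.6, 29.2 and 29.3 Hspa5 counts per Ddit3 count in control replicates A to D. With siRNA 1423 there were 27.4, 30.3, 31 and 29.8, and with siRNA 1928 there were 29.2, 29.9, 30.2 and 31.6. Replicate A of siRNA 1423 had the lowest ratio of all 12 libraries and replicate D of siRNA 1928 the highest, and the groups overlapped.

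The log2 ratio of Ddit3 to Hspa5 was lower than in the control by 0.050 with siRNA 1423 (log2 difference -0.050, exact two-sided permutation p = 0.286, adjusted p = 0.429 over 3 comparisons, n = 4 each). That value was -0.0871 without replicate A of siRNA 1423, -0.0279 without its replicate C and -0.0328 without control replicate B. With siRNA 1928 the log2 difference from the control was -0.081 (exact p = 0.0857, adjusted p = 0.257). Between the siRNAs it was -0.031 (exact p = 0.571, adjusted p = 0.571), and without replicate A of siRNA 1423 it turned to 0.0058. The smallest p that 4 against 4 libraries can give is 0.0286, before adjustment. After adjustment over 3 comparisons, a comparison that reached this p alone would not fall under 0.05. A call therefore needs another comparison at that p as well. No shift in the balance of the chaperone and the transcription factor passed the test, which could not call a shift seen in only a single comparison.

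**Figure D4:**
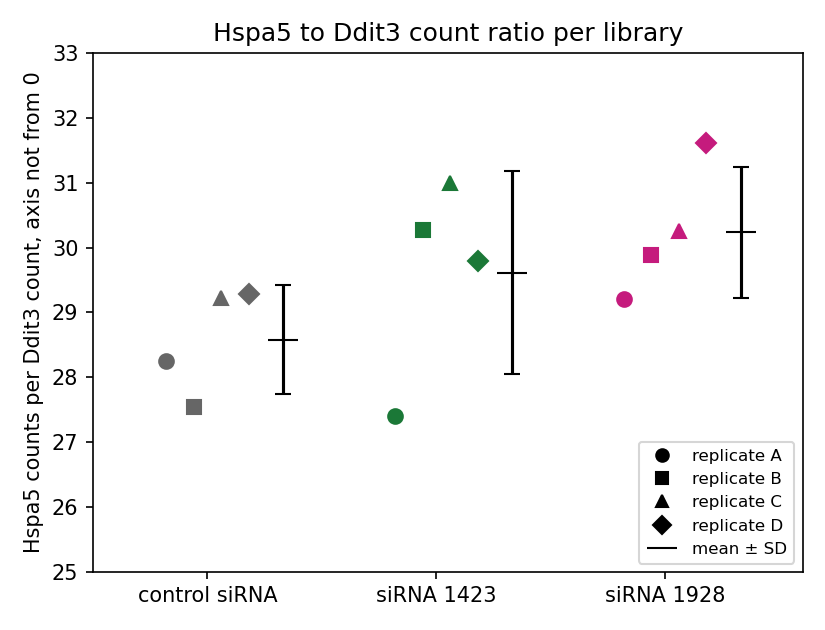
Hspa5 counts per Ddit3 count (vertical axis, not starting at 0) in each library of the 3 groups; symbols are replicates A to D, and black bars are the mean ± SD. The control libraries (27.6 to 29.3) overlap with those of siRNA 1423 (27.4 to 31) and siRNA 1928 (29.2 to 31.6).

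Genes with the most similar pattern were sought among 10499 others with a mean of 5 CPM or more, by the Pearson correlation of log2 CPM with each member over the 12 libraries. These correlations describe a likeness across libraries that share groups, and they have no test. The gene most like Hspa5 was ENSRNOG00000001803 (r = 0.952), at 134 ± 5.11 CPM in the control group, 128 ± 7.45 CPM with siRNA 1423 and 146 ± 5.85 CPM with siRNA 1928 (SD, n = 4 each). The gene most like Ddit3 was ENSRNOG00000006485 (r = 0.877), at 58.1 ± 1.37, 54.8 ± 2.58 and 57.3 ± 0.594 CPM in the same groups. For Hspa5, 20 genes had an r above 0.9, and for Ddit3 0 genes did. Hspa5 and Ddit3 correlated with each other at r = 0.454. For Hspa5, 76.0% of the other genes had a lower correlation than Ddit3, and for Ddit3, 90.4% had a lower one than Hspa5.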

How the data were processed

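Strand-specific mRNA libraries of OC1 cells were grouped by the siRNA code in their titles, and the letters A to D named the replicates. The authors deposited 1 table of expected counts by Ensembl gene ID, a unit read from the values, since 71.3% were whole to within 1e-06. Of tools and build, bcl2fastq 2.20, fastp 0.21.0, DESeq2 1.24.0 and mRatBN7.2 are named per the submitters' processing notes. An aligner, a counting program, an annotation release and any use of strand in counting were not given in the sources used here. Among the members' values, only 1 (Ddit3, siRNA 1423 replicate D) was whole. How reads were divided between features was not measured.

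Expected counts were rounded, filtered with filterByExpr (minimum count 10, minimum total 15), scaled by TMM and tested with edgeR 4.0.16 (quasi-likelihood F test; R 4.3.3) in 1 model of 3 group means over 12 libraries. A gene was called at an adjusted p under 0.05. Alternatives used limma 3.58.1 and DESeq2 1.42.0. Standard errors and 95% intervals were derived from the F statistic. The fits were run on simulated counts for their calls, signs and bias, while the coverage of the intervals was not checked. The identity of the members comes from the rule that chose them; 0 of the IDs were found in the reference table (GRCr8), so 5 gene lists of the ER stress response and BCL-2 family and a list of cell type markers were not used here. By the rule for naming, the text names the members and, by ID, the most similar gene of each. The members and lists were chosen with earlier results of these data known, and the CCAAT box and the amino acid response core were chosen as motifs after the sequences had been seen. Ratios were compared by exact permutation tests. Figures were drawn with matplotlib 3.10.9.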

Additional observations from a re-analysis of the deposited data

Results flagged for a closer look

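Hspa5 differed between the siRNAs by 0.11 on the log2 scale (siRNA 1928 minus siRNA 1423), and the test of that difference itself passed the threshold. Control replicate C lay far from the other control libraries in Hspa5, at 538 CPM, with a gap to its nearest neighbour of 0.881 of the group's range. Chance picks out about 1 in 20 groups, and 9 were searched. Without this library, the log2 fold change of Hspa5 was -0.028 with siRNA 1423 (adjusted p = 0.580 by edgeR) and 0.081 with siRNA 1928 (adjusted p = 0.0380).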

How the results depend on the processing

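The difference of Hspa5 between the siRNAs passed the test under all 13 alternatives (log2 0.0988 to 0.173) and without each of the 8 libraries in turn (0.0957 to 0.129). Hspa5 with siRNA 1928 against control gained a call with library size alone (0.121), upper-quartile scaling (0.0824), a mean of 5 CPM or more (0.0762), a term for A and B against C and D (0.0638) and the replicate block (0.0639, adjusted p = 0.0342 by edgeR). With libraries left out it ranged from 0.0496 to 0.0825. Under the other 8 alternatives its adjusted p stayed above 0.05. The cause was not tested. Ddit3 with siRNA 1928 against control changed sign with library size alone (0.0389) and upper-quartile scaling (0.000219), without passing the test. Hspa5 and Ddit3 with siRNA 1423, and Ddit3 between the siRNAs, kept their sign and were not called under the 13 alternatives or without any 1 library. Changed genes with siRNA 1423 numbered 2903, 1535 with replicates A and B alone and 2361 with C and D alone, and the cause of the lower number in A and B was not tested. With library size alone, 64.4% of the genes called with siRNA 1928 against control were higher, against 48.3% with TMM, and between the siRNAs 66.4% against 48.1%. The log2 ratio between the siRNAs ranged from -0.0535 to 0.00576 with libraries left out. The labels do not say that a letter marks a shared culture or day. Deviations of same-letter libraries correlated at 0.0296 to 0.134, above 0 in 12 of 12 pairs and above 0.1 in 5, while 21 of 36 different-letter pairs lay below 0. Pairing was not taken as given, because the labels do not state it. Of the 12 libraries, 2 correlated best with their own letter in both other groups. With the replicate block, called genes rose from 2903 to 3365 with siRNA 1423 against control. They rose from 5752 to 6174 with siRNA 1928 against control and from 5645 to 6017 between the siRNAs. The replicate block changed no other call of the members. For Ddit3, the counting error matched or exceeded the spread in its groups, and the part of depth in its results was not tested.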
